A study of Bos taurus with 20 samples.

Results

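bta-miR-221 and bta-miR-222 were chosen by name, as a pair of microRNAs known to act on KIT, and both were listed among the 1029 mature bovine miRNAs counted in spermatozoa, so 2 of 1029 measured miRNAs are described here. Small RNA was sequenced from frozen-thawed spermatozoa of 20 Holstein-Friesian bulls, 10 of high fertility (HF) and 10 of low fertility (LF), with 1 library per bull. The bulls were mature, had been ranked by a statistical model of field fertility adjusted for other factors, and received no treatment. Semen from separate ejaculates was mixed for each bull and somatic cells were lysed with detergent before RNA was extracted with TRIzol and NEBNext small RNA libraries were made.

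miR-221 and miR-222 are encoded side by side on the X chromosome and are made from a common precursor transcript. They carry the same seed, the stretch near the 5′ end of a miRNA that pairs with its targets, and so share most of their targets. KIT is the receptor tyrosine kinase for stem cell factor. In the mouse testis undifferentiated spermatogonia hold miR-221 and miR-222 and little KIT protein, and retinoic acid lowers these miRNAs as the cells begin to differentiate and KIT rises. The study describes KIT as a gene not expressed in sperm cells and used RT-PCR for its transcript as a control for germ cell contamination. In spermatozoa the study reported no amplification of KIT, nor of PTPRC for leucocytes or CDH1 for epithelial cells. Outside the testis both miRNAs are abundant in endothelial and smooth muscle cells. Their level in spermatozoa is the subject here, and the comparison of HF with LF bulls asks whether it differs with fertility.

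In the RefSeq annotation of ARS-UCD2.0, MIR221 and MIR222 were each other's neighbours on chromosome X, with 0 other miRNA genes within 100 kb of either. Both lay inside the span of the long non-coding RNA gene LOC132344329.

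The reads counted on miRNAs ranged from 103204 to 3097581 per library. Levels are given as normalised counts, read counts scaled to a common library size (CPM) with a TMM factor. A floor of 3 reads was a normalised count of 1.19 for the deepest library, HF replicate 2, and of 27.6 for the shallowest, HF replicate 17. Intervals and floors cover counting error only, since copies made by PCR are not independent molecules. The labelled cell type was checked against 5 miRNAs of late germ cells, miR-34b, miR-34c, miR-449a, miR-449b and miR-449c. Their summed level was between 25829 and 77203 in all bulls, most of it from miR-34c (mean 35782.5). Markers of other cell types were also counted, and no listed marker was at 0 in every bull. The 2 endothelial markers summed to between 48.2 and 194 in HF and between 29.3 and 264 in LF bulls. The 7 blood cell markers summed to between 69.0 and 249.9 in HF and between 63.2 and 307 in LF bulls. The 8 stromal and muscle markers summed to between 138 and 1827 in HF and between 238 and 2247 in LF bulls. The 6 epithelial markers summed to between 6544 and 13138 in HF and between 9680 and 15554 in LF bulls. The part of such cells in the levels below was not tested, and in a library of bulk RNA fewer cells of a type and less RNA per cell cannot be told apart.

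Both miRNAs were present in spermatozoa of every bull, at a low level. Over the 20 bulls bta-miR-221 had a normalised count of 80.1 ± 68.5 (SD, n = 20) and bta-miR-222 of 38.3 ± 21.2 (SD, n = 20). They ranked 169th and 214th of the 1029 miRNAs by mean level, and together made up 0.0122% ± 0.00816 (SD, n = 20) of the normalised counts. The libraries held between 3 and 420 reads of bta-miR-221, with a median of 69.5, and between 2 and 153 reads of bta-miR-222, with a median of 43. The shallowest library sat at the floor for bta-miR-221, with 3 reads, and under it for bta-miR-222, with 2 reads.

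In HF bulls the normalised count of bta-miR-221 was lowest at 27.6, had a median of 67.1 and was highest at 319. In LF bulls it was lowest at 27.0, had a median of 52.5 and was highest at 167. The groups overlapped almost completely, since 9 of 10 bulls of each group lay within the range of the other. The spread among bulls was 11.8-fold from the lowest to the highest, and 6.17-fold without HF replicate 14.

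For bta-miR-222 the lowest, median and highest normalised counts were 7.73, 32.2 and 80.0 in HF bulls. The corresponding values in LF bulls were 13.8, 40.9 and 90.1. Here too 9 of 10 bulls of each group lay within the range of the other, and the highest bull had 11.7 times the level of the lowest, or 6.51 times without HF replicate 9, whose value rests on 4 reads.

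**Figure D1:**
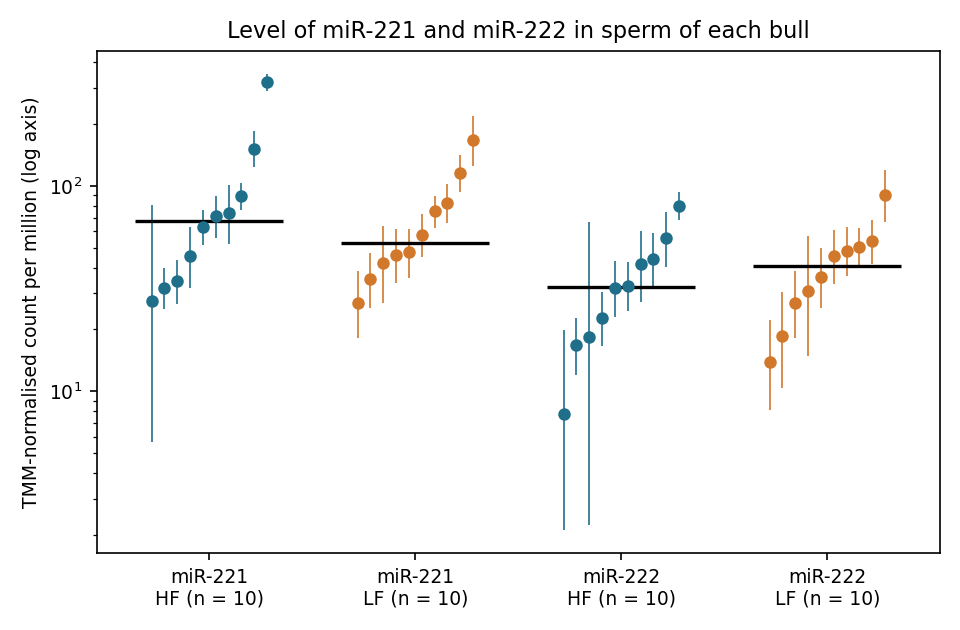
Normalised count (log axis) of miR-221 and miR-222 in each of 10 HF and 10 LF bulls, ordered by level within a group; points are single bulls, thin lines exact 95% binomial intervals of the read count, and black bars group medians. The groups overlap for both miRNAs, and HF replicate 14 at 319 sits above all other bulls for miR-221.

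Counting error was small beside this spread. The coefficient of variation over bulls was 85.5% for bta-miR-221 (59.3% without HF replicate 14), whereas read counts alone would give 13.0%. For bta-miR-222 it was 55.5%, and read counts alone would give 18.3%. HF replicate 14 had 420 reads of bta-miR-221, and its exact 95% interval of 289.6 to 351 for the normalised count lay above the intervals of all other bulls. Next came LF replicate 11 at 167 (54 reads), HF replicate 6 at 152 (99 reads) and LF replicate 18 at 116 (94 reads). For bta-miR-222 the highest bulls were LF replicate 13 at 90.1 (49 reads) and HF replicate 12 at 80.0 (153 reads), and the lowest was HF replicate 9 at 7.73, from only 4 reads. Of the 2 bulls highest for bta-miR-222, HF replicate 12 was above the bta-miR-221 median of 60.5, at 88.9. LF replicate 13 was below it, at 42.3.

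In HF replicate 14 the summed endothelial markers were at 50.2, the 14th highest of 20 bulls, and the blood cell markers at 81.4, the 18th highest. Its stromal and muscle markers were at 875, the 5th highest, and its epithelial markers at 13138, the 4th highest. In LF replicate 13 the corresponding ranks were 5 for endothelial, 4 for blood cell, 7 for stromal and muscle and 5 for epithelial markers. Over the 20 bulls, Spearman's rho of bta-miR-221 with the 5 summed marker lists lay between -0.28 for late germ cells and 0.202 for endothelial cells. For bta-miR-222 it lay between 0.0887 for epithelial cells and 0.409 for stromal and muscle cells. These values share library and scaling and are given as a description. Between HF and LF bulls the median log2 difference of the tested markers was 0.20 for late germ cells, 0.23 for endothelial cells, -0.04 for blood cells, -0.40 for epithelial cells and 0.33 for stromal and muscle cells. All 6 epithelial markers were lower on average in HF bulls, but they share libraries and scaling and are not 6 separate observations. Over all 435 miRNAs tested the median log2 difference was 0.0051, and 15 had an unadjusted p under 0.05. Of the 6 markers 2 did, each with an adjusted p of 0.94. They were bta-miR-200a with a log2 difference of -0.28 (p = 0.040 from limma) and bta-miR-429 with -0.47 (p = 0.014 from limma). Of the 25 markers tested 1 passed the thresholds of the study, an unadjusted p under 0.05 and a fold change over 1.5, against 2.07% of all miRNAs tested. It was the blood cell marker bta-miR-155, with a log2 difference of -0.998 (p = 0.00335 and adjusted p = 0.92 from limma).

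The comparison of HF with LF bulls found no difference beyond the spread between bulls for either miRNA. The mean of bta-miR-221 was 90.7 ± 88.3 (SD, n = 10) over HF bulls. Over LF bulls it was 69.6 ± 43.1 (SD, n = 10). On the scale of log2(normalised count + 1) the difference was 0.17 (standard error 0.39, 95% interval -0.63 to 0.96), with p = 0.67 and an adjusted p of 0.96 from limma with Benjamini-Hochberg adjustment. The mean of bta-miR-222 was 35.1 ± 21.3 (SD, n = 10) over HF bulls. Over LF bulls it was 41.4 ± 21.8 (SD, n = 10). Its log2 difference was -0.30 (standard error 0.36, 95% interval -1.04 to 0.43), with p = 0.40 and an adjusted p of 0.96 from limma.

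As folds of HF over LF, the intervals ran from 0.647 to 1.95 for bta-miR-221 and from 0.486 to 1.35 for bta-miR-222. A change of 1.5-fold in either direction was therefore within the interval for bta-miR-221, and for bta-miR-222 only a change of this size downwards in HF bulls was. For bta-miR-221, 6 of 10 HF bulls were above the LF median, and for bta-miR-222, 6 of 10 were below it. With the same thresholds 0 of the 2 miRNAs were called, against 9 of the 435 miRNAs tested, or 2.07%. Of these 9, 4 were higher in HF bulls (0.920%) and 5 lower (1.15%). Of all 435, 15 had an unadjusted p under 0.05 and 0 an adjusted p under 0.05 with limma, and edgeR and DESeq2 on reads recovered from the normalised counts also gave 0 adjusted calls, with 16 to 18 unadjusted p under 0.05.

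The sign of the bta-miR-221 difference rested on HF replicate 14, without which the log2 difference was -0.08 (p = 0.82 from limma). On recovered reads the difference of bta-miR-221 was larger, 0.39 in the likelihood ratio test of edgeR (p = 0.32) and 0.43 in its quasi-likelihood test (p = 0.29).

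**Figure D2:**
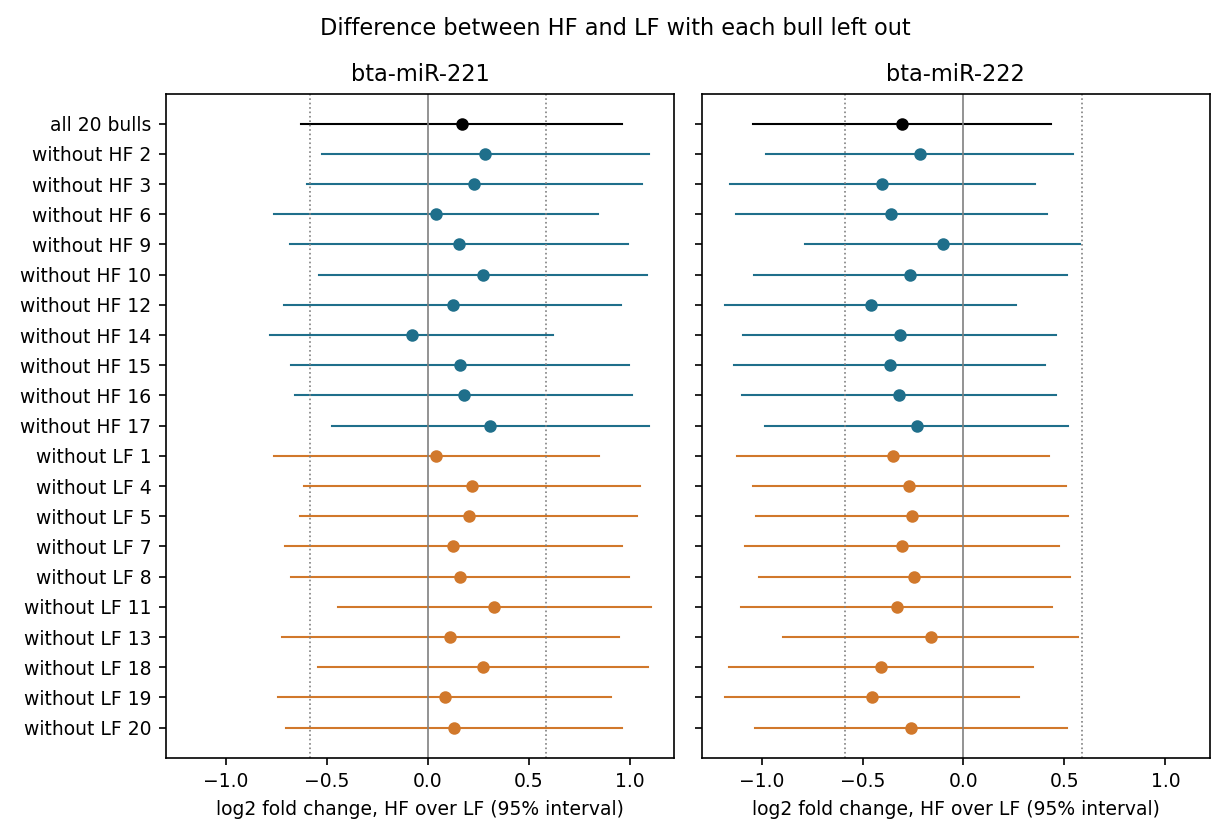
Difference between HF and LF bulls as log2 fold change (limma, HF over LF) with its 95% interval for bta-miR-221 and bta-miR-222, for all 20 bulls (black) and with the named HF or LF bull removed; dotted lines mark a fold of 1.5 in either direction. Every interval holds 0, and the estimate for bta-miR-221 is below 0 in 1 of 20 fits, that without HF replicate 14.

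The balance between both miRNAs was examined next, since the ratio of their reads within a library does not depend on how the library was scaled. bta-miR-221 was the more abundant in 16 of 20 bulls, 9 HF and 7 LF, bta-miR-222 was in 3, and in LF replicate 1 each had 30 reads. Over all libraries, 66.4% of the reads of the pair were bta-miR-221. Its share of the pair was lowest at 45.0%, had a median of 63.7% and was highest at 90.9% in HF bulls. In LF bulls the lowest, median and highest shares were 31.9%, 58.0% and 86.2%. The exact 95% interval of the share lay wholly above 50% in 12 bulls and wholly below 50% in 1, LF replicate 13.

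The ratio varied widely among bulls of the same group. In HF replicate 14, 420 reads of bta-miR-221 stood against 42 of bta-miR-222, a ratio of 10.0. In HF replicate 9 the ratio was 9.50, on 38 and 4 reads, and the exact 95% interval of the share of bta-miR-221 was 77.4% to 97.3%. LF replicate 18 followed at 6.27, LF replicate 11 at 5.40 and HF replicate 6 at 3.67. At the other end LF replicate 13 had a ratio of 0.469, on 23 and 49 reads, with an interval of the share from 21.4% to 44.0%. Bulls with a high ratio were found in both groups.

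**Figure D3:**
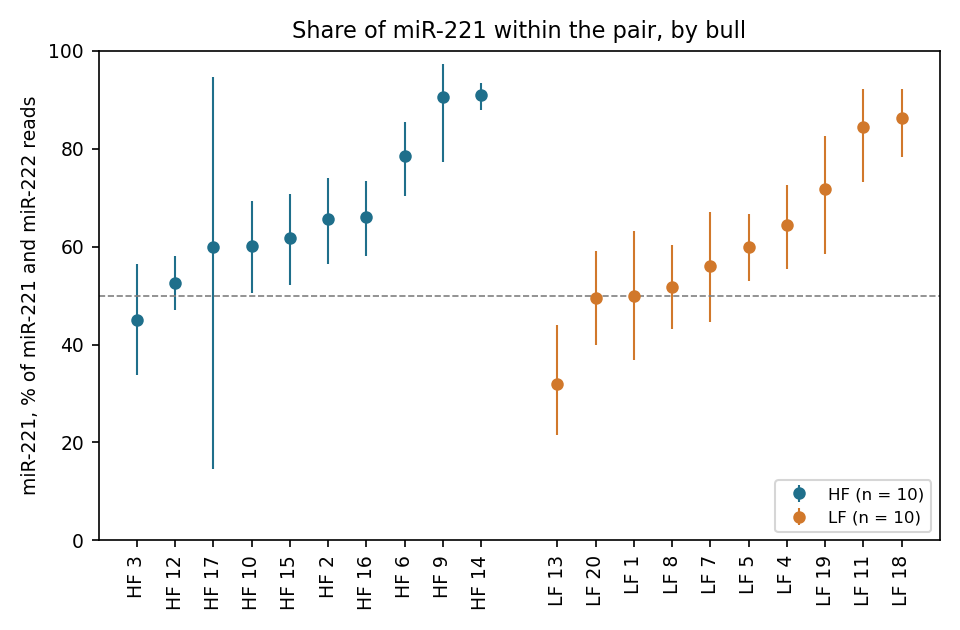
Reads of miR-221 as a percentage of all reads of miR-221 and miR-222 in each bull, in order within HF (left) and LF (right); lines are exact 95% binomial intervals and the dashed line marks 50%. HF replicates 9 and 14 reach 90.5% and 90.9%, LF replicate 13 is at 31.9%, and the interval of HF replicate 17, on 5 reads, runs from 14.7% to 94.7%.

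The log2 ratio of bta-miR-221 to bta-miR-222, with 1 added to each normalised count, averaged 1.17 (SD 1.2, n = 10) among HF bulls and 0.70 (SD 1.13, n = 10) among LF bulls. A two-sided permutation test gave p = 0.37 for the difference of 0.47 (standard error 0.52), so the opposite signs of both log2 differences were not shown to differ from each other. The level of both miRNAs summed, as log2(normalised count + 1), averaged 6.70 (SD 0.93, n = 10) among HF bulls and 6.70 (SD 0.62, n = 10) among LF bulls. The difference was 0.0024 (standard error 0.35, p = 0.996 by the same permutation test), and its sign changed with the scaling and, to -0.19, without HF replicate 14.

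No relation between the levels of both miRNAs across bulls was shown. Pearson's r of the log2 values was 0.146 (permutation p = 0.54, adjusted p = 0.81) and Spearman's rho 0.214 (permutation p = 0.37, adjusted p = 0.55) over 20 bulls, adjusted over 3 relations, the others being those of each miRNA with depth. Without HF replicate 14 and LF replicate 11, the bulls farthest from the median of bta-miR-221, r was 0.226 (permutation p = 0.37). Within HF bulls r was 0.296 (permutation p = 0.41, n = 10) and within LF bulls -0.0449 (permutation p = 0.90, n = 10). Without the shallowest and the deepest library, the rho of 0.214 came to -0.0010 (permutation p = 1).

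Neither level followed depth. Pearson's r with the log2 number of reads was -0.0574 for bta-miR-221 (permutation p = 0.81, adjusted p = 0.81) and 0.124 for bta-miR-222 (permutation p = 0.60, adjusted p = 0.81). Spearman's rho was -0.224 (permutation p = 0.34, adjusted p = 0.55) and 0.0195 (permutation p = 0.94, adjusted p = 0.94), respectively. Without the 2 libraries farthest from the median depth, r was -0.243 (permutation p = 0.33) and -0.0693 (permutation p = 0.79). The corresponding rho was -0.317 (permutation p = 0.20) for bta-miR-221 and -0.139 (permutation p = 0.58) for bta-miR-222.

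**Figure D4:**
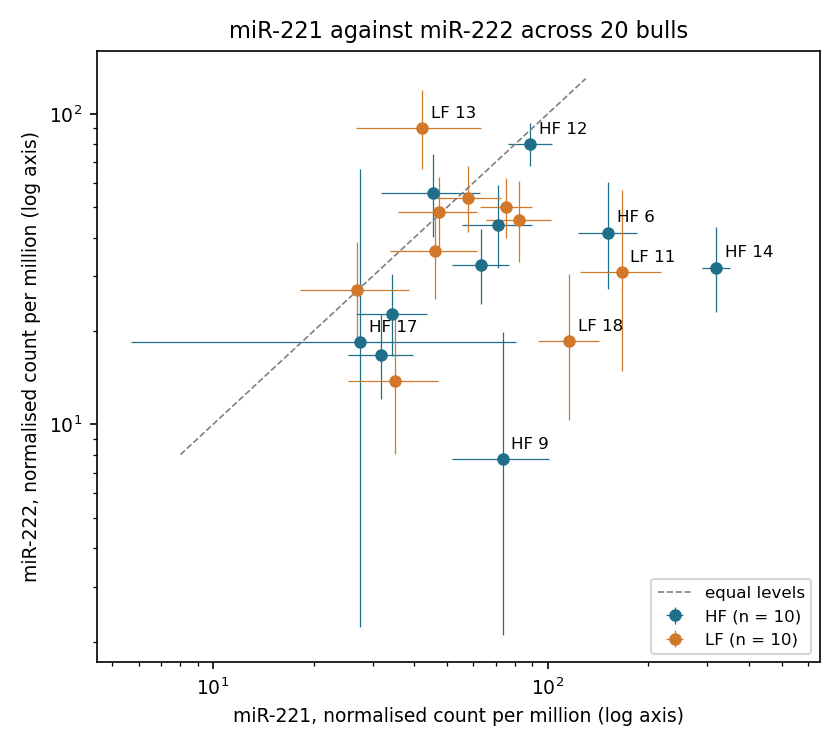
Normalised count of miR-221 (x, log axis) against miR-222 (y, log axis) in 10 HF and 10 LF bulls, with exact 95% binomial intervals; the dashed line marks equal levels and bulls far from the others are named. Most bulls lie below the line, HF replicate 14 lies far to the right at an ordinary level of miR-222 (31.9), and LF replicate 13 lies above the line.

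In the order of mean levels, bta-miR-221 stood between bta-miR-153 (81.7 ± 34.1, SD, n = 20) and bta-miR-181d (79.6 ± 30.9, SD, n = 20). Further off were bta-miR-7857-3p at 83.9 and bta-miR-181a at 78.6. None of these 4 differed from it beyond the spread between bulls, as the mean log2 differences, bta-miR-221 minus the neighbour, were between -0.27 and -0.21 with SDs of 0.93 to 1.45. bta-miR-221 was above each of them in only 5 to 9 of 20 bulls, and its coefficient of variation of 85.5% compared with 22.2% to 41.8% among them. Its median of 60.5 was below all 4 of their medians, which lay between 73.4 and 92.7.

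bta-miR-222 stood between bta-miR-98, a let-7 relative at 38.8 ± 17.1 (SD, n = 20), and bta-miR-11975 at 37.5 ± 27.0 (SD, n = 20). bta-miR-11975 and bta-miR-11976 had equal values in all 20 libraries, so that their own levels are uncertain. bta-miR-2285cy at 39.0 came next above. The mean log2 differences, bta-miR-222 minus the neighbour, were between -0.19 and 0.04 with SDs of 0.91 to 1.11, again within the spread between bulls. The coefficient of variation of bta-miR-222, 55.5%, lay within the 28.9% to 71.9% of its neighbours.

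Among 293 other miRNAs with a read in every bull, the mean log2 level of the pair was most like those of bta-miR-10a (Spearman's rho 0.579), bta-let-7b (0.55), bta-miR-26b (0.526), bta-miR-10b (0.516) and bta-miR-2484 (0.492) over 20 bulls. The likeness was not shared evenly. For bta-miR-10a rho was 0.438 with bta-miR-221 and 0.409 with bta-miR-222, whereas for bta-miR-26b it was 0.313 and 0.638. These were chosen as the highest of many values, and bta-miR-2484 had a median of 4.5 reads. With each other bta-miR-221 and bta-miR-222 had a rho of 0.214, and 48 of the 293 had a higher one with bta-miR-221 and 71 with bta-miR-222.

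miRNAs of related roles were compared between HF and LF bulls beside the pair, with a median log2 difference of 0.0051 over all 435 miRNAs tested. Of 5 other miRNAs known to act on KIT, only bta-miR-218 passed the filter on low values. It had a normalised count of 139 ± 47.6 (SD, n = 20), above both members of the pair, and a log2 difference of 0.12 (p = 0.60 from limma). bta-miR-34a, which p53 induces, was counted in 11 bulls with at most 3.09, bta-miR-494 in 6, bta-miR-193b in 2 and bta-miR-193a-3p in 1. bta-miR-494 was counted in 1 HF and 5 LF bulls with at most 4 reads, and in a fit without the filter its log2(normalised count + 1) differed by -0.75 (p = 0.020 and adjusted p = 0.91 from limma), past the thresholds of the study, as were 15 of 731 miRNAs (2.05%) there.

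Of 13 miRNAs described in undifferentiated spermatogonia, 12 were tested. Of these, 0 passed the thresholds of the study in either direction with limma, against 2.07% of all 435 miRNAs tested. At this share 0 of 12 does not set the list apart. The median log2 difference of the 12 was -0.12. The list spanned a wide range of levels, from bta-miR-21-5p at 54410 ± 10445 (SD, n = 20), which ranked 3rd, to bta-miR-544a, which was at 0 in every bull. bta-miR-202, a miRNA that keeps mouse spermatogonial stem cells from differentiating early, was at 122 ± 85.3 (SD, n = 20), and bta-miR-182 and bta-miR-183 were at 134 and 128, all above the pair. Only bta-miR-146a had an unadjusted p under 0.05, with a log2 difference of -0.52 (p = 0.037 from limma, adjusted p = 0.94), which is under a fold of 1.5. The study, with its own edgeR test, reported bta-miR-146a as decreased in HF bulls.

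The let-7 family rises with retinoic acid as spermatogonia differentiate. All 9 of its listed members were tested and with limma 0 passed the thresholds in either direction, against 2.07% of all 435 miRNAs tested. At this share 0 of 9 does not set the family apart. The study, with its own edgeR test, reported bta-miR-98 as differentially expressed. With limma its log2 difference was -0.39 (p = 0.24). The median log2 difference of the 9 was -0.05. Their summed level was between 14723 and 28529 in HF and between 12562 and 24505 in LF bulls, far above the summed level of the pair, with means of 126 (SD 93.1, n = 10) among HF bulls and 111 (SD 43.7, n = 10) among LF bulls. Spearman's rho of the summed let-7 level over 20 bulls was 0.12 with bta-miR-221 and 0.531 with bta-miR-222.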

How the data were processed

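Small RNA libraries of 20 bulls were analysed, grouped by the labels. The authors clipped adapters with Cutadapt, filtered reads by length and against rRNA, tRNA and similar classes, and used miRDeep2 with the ARS-UCD1.2 genome and miRBase to count mature miRNAs. The deposited values, described as counts, are a normalised signal per miRNA: counts scaled to CPM with the TMM factor of each library. The value of 1 read per library was taken as the commonest low value, and 95.0% of values above 0 came out whole within 0.01 reads. Fractions were rounded.

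miRNAs under 1 in at least 10 of 20 bulls were removed. limma 3.58.1 (variance trend, R 4.3.3) was fitted on log2(value + 1) over the remaining 435, HF minus LF, without covariates, with Benjamini-Hochberg adjustment. This differs from the count test of the study, and edgeR 4.0.16 and DESeq2 1.42.0 were run on recovered reads as alternatives. Permutation tests used 100000 resamples (scipy 1.17.1). The limma, edgeR and DESeq2 fits and the permutation tests were tried on simulated data. The exact intervals and the comparison of gaps described below were not.

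Named miRNAs are the pair, 2 neighbours in level on each side, the 5 most alike in profile, those next to the pair in the genome, and listed members. A rule for shared seeds was not applied, as mature sequences were not used here. The pair and the lists were chosen with earlier results of these data known. The ARS-UCD2.0 annotation served only for neighbouring genes.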

Additional observations from a re-analysis of the deposited data

Results flagged for a closer look

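In 10 groups of 10 bulls, formed by 5 measures of the pair in HF and LF, the highest and the lowest bull were compared with the nearest of the others by their gap as a share of the range of the group. The share exceeded Dixon's 95% critical value for 10 samples in 3 groups. For normally distributed values chance gives about 1 in 20, and the measures share libraries. On the scale of log2(normalised count + 1), used for the tests, the corresponding gaps were 0.306, 0.296 and 0.281 of the range for bta-miR-221, the sum and bta-miR-222, below that value. bta-miR-221 was at 319 in HF replicate 14 and at 152 in the next HF bull, a gap of 0.574 of the range. The summed level of both miRNAs was 351 in the same bull and 193 in the next, HF replicate 6, a gap of 0.518. All of it came from bta-miR-221, since bta-miR-222 was lower in HF replicate 14 (31.9) than in HF replicate 6 (41.4). bta-miR-222 was at 90.1 in LF replicate 13 and at 53.7 in the next LF bull, a gap of 0.477. HF replicate 14 had 1154592 reads on miRNAs and LF replicate 13 had 438649. Whether these levels belong to the bulls or to the libraries cannot be told apart with 1 library each.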

How the results depend on the processing

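bta-miR-222 kept a negative log2 difference in all 32 alternatives run, between -0.46 and -0.10, and could not be fitted with at least 10 required in every bull. bta-miR-221 lay between -0.079 (without HF replicate 14) and 0.33 with single bulls left out and came to -0.13 without HF replicate 14 and LF replicate 13, an alternative chosen after seeing the data, and to 0.46 without the shallowest and the deepest library. Neither passed a threshold in any of them. The summed level differed by -0.059 without TMM factors, -0.021 with DESeq2 size factors, -0.013 without bta-miR-100, -0.15 without those 2 bulls, 0.28 without the shallowest and the deepest library, and -0.19 (without HF replicate 14) to 0.13 with single bulls left out. The log2 ratio stayed positive, from 0.04 without those 2 bulls to 0.68. Spearman's rho of the pair lay between 0.119 and 0.291 with single bulls left out and was -0.0010 without the shallowest and the deepest library. The 9 calls among all miRNAs became 4 with a pseudocount of 5, 15 without a filter and 0 with at least 10 in every bull (222 tested, of which 5 had p under 0.05 with limma), and 7 to 15 with single bulls left out, with 15 without HF replicate 6 and 14 without LF replicate 1, 11 or 13. The causes were not tested. Counting error made up 2.30% of the variance over libraries for bta-miR-221 and 10.9% for bta-miR-222, and with 1 library per bull the rest cannot be divided between bulls and library preparation.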

Other observations

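How closely miRNAs of a shared precursor transcript follow each other was also read from other pairs, chosen after the values were seen and given without a test. Over the 20 bulls Spearman's rho was 0.80 for bta-miR-17-5p with bta-miR-20a, 0.722 for bta-miR-143 with bta-miR-145 and 0.532 for bta-miR-182 with bta-miR-183. It was 0.284 for bta-miR-195 with bta-miR-497, 0.161 for bta-miR-191 with bta-miR-425-5p and 0.116 for bta-miR-106b with bta-miR-25. The 0.214 of bta-miR-221 with bta-miR-222 lay within this range. bta-miR-145 had a median of 1 read per library, whereas bta-miR-182 and bta-miR-183 had medians of 143.5 and 134.5.

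The profiles most like each member of the pair were also listed. bta-miR-221 was most like bta-miR-320a (rho 0.648), bta-miR-2285br (0.529) and bta-miR-24-3p (0.493) over the 20 bulls, and the rho of bta-miR-222 with the same 3 miRNAs was -0.226, -0.144 and -0.359. bta-miR-222 was most like bta-miR-31 (0.69), bta-miR-202 (0.683) and bta-miR-17-5p (0.651), for which the rho of bta-miR-221 was 0.0256, 0.0842 and 0.0406. These are the highest of 293 values each and share library and scaling. As each set of 3 was picked by its rho with 1 member, a lower rho with the other member follows in part from that choice.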
